A study of Homo sapiens with 6 samples.

Results

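The nuclear-encoded subunit mRNAs of respiratory complex I were taken from the deposited count table as the rows whose symbol is NDUFA, NDUFB, NDUFC, NDUFS or NDUFV followed by a number. This gave 37 of 26364 genes, 26 of them NDUFA, NDUFB or NDUFC genes and 11 NDUFS or NDUFV genes. RNA fragments selected by size, with adapters ligated to both of their ends, had been sequenced from HEK293T, a human cell line derived from embryonic kidney. All 6 libraries came from cells that received 200 nM okadaic acid, an inhibitor of protein phosphatases, for 3 h, so none of them is untreated. The p-UPF1 IP libraries (replicates 3, 6 and 9, n = 3) were made from RNA immunoprecipitated with an antibody against phosphorylated UPF1. The pre-IP libraries (replicates 1, 4 and 7, n = 3) are titled as RNA from before the immunoprecipitation, but their antibody field names rabbit IgG, so whether they are input RNA or a mock precipitation cannot be told apart. The labels do not give separate cultures for the replicates, so the p-values rest on differences among libraries that may be purely technical.

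Complex I, the NADH:ubiquinone oxidoreductase, is the entry point of electrons from NADH into the mitochondrial respiratory chain. It passes them over a flavin and a chain of iron-sulfur clusters to ubiquinone and pumps protons across the inner membrane. A catalytic core shared with bacteria is surrounded by supernumerary subunits, many of them small proteins that build and stabilise the membrane arm. UPF1 is an RNA helicase that is phosphorylated on mRNAs undergoing nonsense-mediated decay, and the comparison asks which RNA fragments are associated with its phosphorylated form. The letters of the symbols follow the core only in part. NDUFS1, NDUFS3, NDUFS7, NDUFS8, NDUFV1 and NDUFV2 are among the core subunits, NDUFS4, NDUFS5, NDUFS6 and NDUFV3 are supernumerary, and NDUFA4 is now counted as a subunit of cytochrome c oxidase (complex IV). The core subunits encoded by mitochondrial DNA were not analysed here.

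How short the coding sequences of the small subunits are is shown by NDUFA1 and NDUFA4, which had the largest falls among members with a single annotated coding transcript. They are from GENCODE release 29 (GRCh38), with the start and stop codons in capitals. The 213 nt of NDUFA1 encode 70 amino acids over 3 exons on the + strand of chromosome X (119871912 to 119876534), and the 246 nt of NDUFA4 encode 81 amino acids over 4 exons on the - strand of chromosome 7 (10933636 to 10940057).
NDUFA1: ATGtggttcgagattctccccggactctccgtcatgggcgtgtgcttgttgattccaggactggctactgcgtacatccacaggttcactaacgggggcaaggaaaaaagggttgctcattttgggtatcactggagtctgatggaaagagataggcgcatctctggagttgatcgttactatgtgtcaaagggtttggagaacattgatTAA
NDUFA4: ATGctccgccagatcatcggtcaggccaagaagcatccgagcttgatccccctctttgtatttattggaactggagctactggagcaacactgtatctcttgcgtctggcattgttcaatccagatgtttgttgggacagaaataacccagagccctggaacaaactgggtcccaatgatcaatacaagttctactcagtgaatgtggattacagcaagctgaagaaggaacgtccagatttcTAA

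Libraries held 905926 to 2057647 counts in p-UPF1 IP and 600244 to 1179369 in pre-IP. The 37 members together took 2002, 1664 and 1191 counts in p-UPF1 IP replicates 3, 6 and 9, and 1146, 611 and 814 in pre-IP replicates 1, 4 and 7. Summed over a group, tested members had as few as 10 counts in p-UPF1 IP (NDUFB1) and 9 in pre-IP (NDUFB7), which limits the precision for each. Levels are given as CPM, counts relative to the effective library size from TMM, a method that sets the bulk of genes equal between libraries. Its factors were 1.53 to 2.04 in p-UPF1 IP and 0.469 to 0.672 in pre-IP, so every direction below is relative to the bulk of genes. HEK293 lineage markers (PAX2, LIN28B, NEFL and NEFM) summed to 674 counts in p-UPF1 IP and 132 in pre-IP. Of 15 markers of blood, liver, fibroblast, muscle and epidermis, 11 were at 0 in all libraries, among them HBA1, PTPRC, APOA1 and COL1A2. The other 4 were HBB (2 counts in p-UPF1 IP, 6 in pre-IP), ALB (5 in p-UPF1 IP, 0 in pre-IP), COL1A1 (17 in p-UPF1 IP, 0 in pre-IP) and KRT10 (13 in p-UPF1 IP, 19 in pre-IP), and the list summed to 5.98 to 9.23 CPM of the library total in p-UPF1 IP and 3.33 to 14.8 in pre-IP.

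Of the 35 complex I mRNAs that passed the filter on low counts, 16 were lower in p-UPF1 IP and 0 were higher (edgeR quasi-likelihood F-test, Benjamini-Hochberg 0.05 over all 8070 genes tested). Over all genes tested 10.9% were called lower and 8.81% higher, and over the 7467 protein-coding genes 7.87% and 9.15%, whereas 45.7% of the complex I mRNAs were lower. At an unadjusted p below 0.05, 19 members were lower and 0 higher, beside 1349 and 1396 of all 8070 genes tested. DESeq2 called 16 members lower and limma-voom 15, with 0 higher by either. Of all genes, DESeq2 called 957 lower and 826 higher, and limma-voom 1031 and 651. Genes with short coding sequences were called lower more often in general: of 1140 tested protein-coding genes with a median coding length of up to 600 nt, 28.9% were lower and 2.54% higher. At an unadjusted p below 0.05, 475 of these were lower and 61 higher. DESeq2 called 358 of them lower and 32 higher, and limma-voom 375 and 26. Their transcripts, with a median of 1163 nt, were longer than the 785 nt of the members, so they are not matched to the members in transcript length. The median log2 fold change (p-UPF1 IP over pre-IP) of the members was -1.30, ranging from -5.19 (NDUFB1) to 0.66 (NDUFA6), beside 0.10 for all genes tested and -0.77 for those short protein-coding genes. In 18 of the 35 the p-UPF1 IP libraries all lay below the pre-IP libraries, and in 0 all above, while 17.7% and 21.9% of all genes tested were separated in these directions. Of the 1140 short protein-coding genes, 464 had all p-UPF1 IP libraries below and 81 had all above. With library totals alone in place of TMM the count was 4 lower and 4 higher, beside 1.93% and 60.4% of all genes, and the median turned positive (0.21, against 1.63 for all genes tested). Of the 1140 short protein-coding genes, 42 were lower and 374 higher on that scale, with a median of 0.78.

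**Figure D1:**
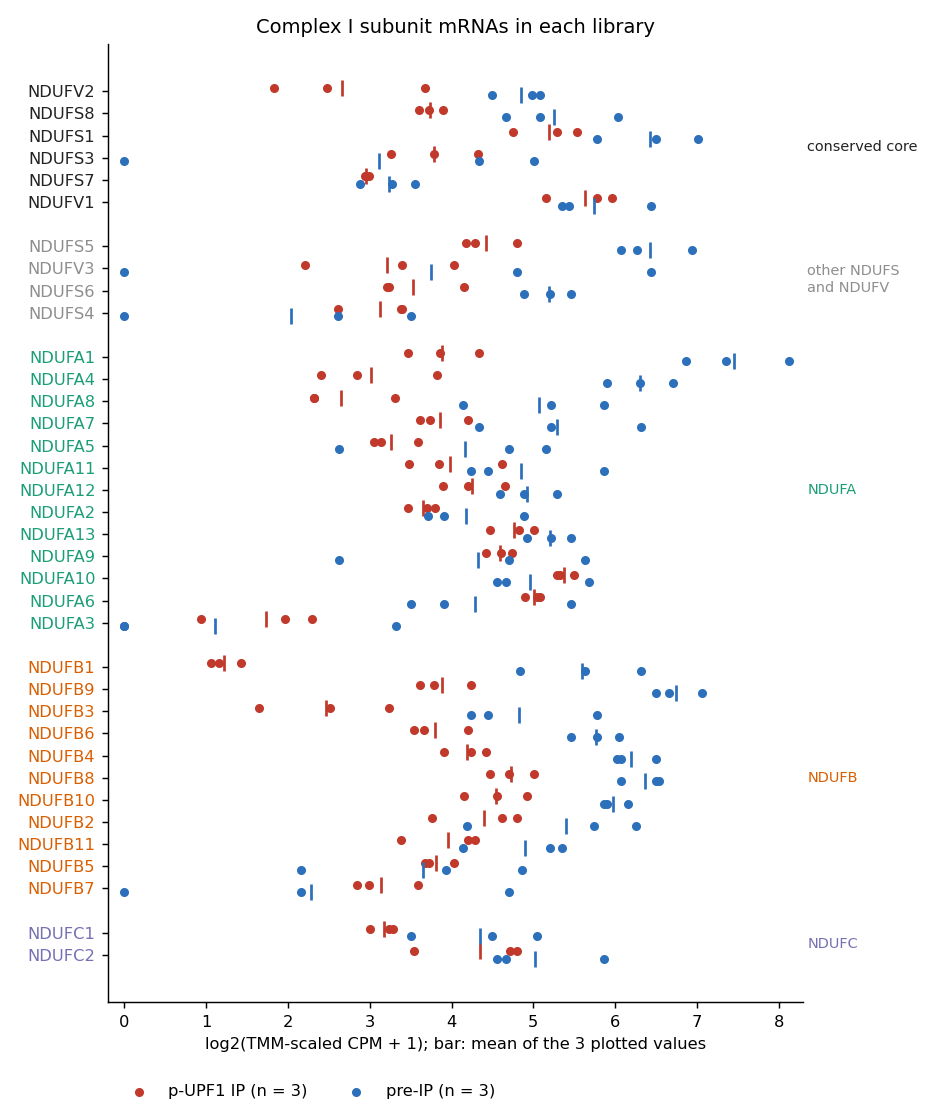
Level of each of 36 complex I mRNAs in each library, as log2 of TMM-scaled CPM plus 1, with p-UPF1 IP (red, upper row of each gene) and pre-IP (blue, lower row); bars mark the mean of the 3 plotted values. The p-UPF1 IP points of NDUFA1, NDUFA4, NDUFB1 and NDUFB9 lie far to the left of their pre-IP points, while those of NDUFV1, NDUFA10 and NDUFA6 lie among them.

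Among the core subunits, NDUFV1 binds NADH and the flavin and so starts the electron path. Its mRNA had 61.4, 34.6 and 53.7 CPM in p-UPF1 IP replicates 3, 6 and 9 and 42.2, 85.9 and 39.7 CPM in pre-IP replicates 1, 4 and 7. The groups overlapped, with a log2 fold change of -0.09 (standard error 0.39, edgeR adjusted p = 0.894), and with library totals alone NDUFV1 was higher in p-UPF1 IP (1.51, adjusted p = 0.00545). NDUFV2, the partner of NDUFV1 that carries an iron-sulfur cluster, had 4.58, 2.55 and 11.7 CPM in p-UPF1 IP and 30.7, 21.5 and 32.8 CPM in pre-IP. All p-UPF1 IP libraries were below all pre-IP libraries, and NDUFV2 fell by 2.24 on the log2 scale (standard error 0.66, adjusted p = 0.0236). The mRNA of NDUFS1, the largest subunit of the complex and carrier of several iron-sulfur clusters, had 38.2, 25.8 and 45.3 CPM in p-UPF1 IP and 53.7, 89.5 and 128 CPM in pre-IP. It fell by 1.30 (standard error 0.37, adjusted p = 0.0210) with no overlap, though with library totals alone its log2 fold change was 0.29 (adjusted p = 0.563).

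The core subunits of the ubiquinone-binding module lie between the NADH module and the membrane arm. NDUFS8, an iron-sulfur subunit, fell by 1.61 (standard error 0.50, adjusted p = 0.0310), with 12.2, 13.8 and 11.2 CPM in p-UPF1 IP and 24.3, 64.5 and 32.8 CPM in pre-IP. NDUFS3 had 8.55, 12.7 and 19.0 CPM in p-UPF1 IP and 19.2, 0 and 31.1 CPM in pre-IP (log2 fold change -0.47, adjusted p = 0.685). NDUFS7, which holds the last cluster before ubiquinone, had 6.72, 6.92 and 6.71 CPM in p-UPF1 IP and 6.40, 10.7 and 8.64 CPM in pre-IP (-0.27, adjusted p = 0.825), on 53 and 13 counts. For NDUFS3 and NDUFS7 the SD among pre-IP libraries was larger than the difference between the groups. In all, 3 of the 7 core mRNAs fell (42.9%) and 0 rose, beside 10.9% and 8.81% of all genes tested.

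The 4 supernumerary subunits with the letters S and V were thinly counted in places. NDUFS5, a small subunit on the intermembrane-space side, had 17.1, 26.9 and 18.5 CPM in p-UPF1 IP and 66.5, 122 and 76.0 CPM in pre-IP, and fell by 2.03 (standard error 0.37, adjusted p = 0.00123). NDUFS6, which binds zinc in the NADH module, had 8.25, 16.7 and 8.39 CPM in p-UPF1 IP and 35.8, 28.6 and 43.2 CPM in pre-IP, and fell by 1.70 (standard error 0.50, adjusted p = 0.0249). Neither gene's groups overlapped. NDUFV3 had 15.3, 3.64 and 9.51 CPM in p-UPF1 IP and 26.9, 85.9 and 0 CPM in pre-IP, a spread between pre-IP libraries that left its log2 fold change of -1.82 short of the threshold (standard error 0.87, adjusted p = 0.152). NDUFS4, a subunit needed for a stable NADH module, failed the filter with 31, 14 and 17 counts in p-UPF1 IP and 4, 0 and 6 in pre-IP. Its TMM-scaled levels overlapped, at 9.47, 5.10 and 9.51 CPM in p-UPF1 IP and 5.12, 0 and 10.4 CPM in pre-IP.

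Among the NDUFA mRNAs 4 of the 12 tested fell (33.3%) and 0 rose. Of protein-coding genes with a coding length of up to 600 nt, 28.9% were lower and 2.54% higher, and of all genes 10.9% and 8.81%. NDUFA1, a small membrane protein required for assembly of the complex, was the most abundant member in pre-IP per transcript length, at 243 CPM per kb there and 18.6 in p-UPF1 IP. It had 63, 37 and 18 counts in p-UPF1 IP and 127, 78 and 67 in pre-IP, or 19.2, 13.5 and 10.1 CPM in p-UPF1 IP and 162, 279 and 116 CPM in pre-IP. Every p-UPF1 IP library was far below every pre-IP library, and NDUFA1 fell by 3.64 (standard error 0.39, adjusted p = 1.1e-05). It made up 1.51% to 3.15% of the members' counts in p-UPF1 IP and 8.23% to 12.8% in pre-IP. NDUFA4, the complex IV subunit, had 4.28, 13.1 and 6.15 CPM in p-UPF1 IP and 58.9, 104 and 77.8 CPM in pre-IP, and fell by 3.30 (standard error 0.47, adjusted p = 0.000145). NDUFA8, a cysteine-motif protein of the intermembrane space, had 3.97, 4.004 and 8.95 CPM in p-UPF1 IP and 16.6, 57.3 and 36.3 CPM in pre-IP (log2 fold change -2.66, standard error 0.65, adjusted p = 0.00838). Both were separated between the groups, as was NDUFA7 of the NADH module, with 11.3, 17.5 and 12.3 CPM in p-UPF1 IP and 19.2, 78.8 and 36.3 CPM in pre-IP (-1.59, adjusted p = 0.0423).

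The other NDUFA mRNAs were not past the threshold. NDUFA6, which belongs to the LYR-motif proteins and holds an acyl carrier protein in place, had 28.7, 32.0 and 33.0 CPM in p-UPF1 IP and 14.1, 43.0 and 10.4 CPM in pre-IP. NDUFA10, a membrane-arm subunit with a nucleoside kinase fold, had 44.3, 38.2 and 39.1 CPM in p-UPF1 IP and 24.3, 50.1 and 22.5 CPM in pre-IP. In both, pre-IP replicate 4 was above and the other pre-IP libraries below the p-UPF1 IP range. Their log2 fold changes of 0.66 (standard error 0.52, adjusted p = 0.404) and 0.43 (standard error 0.41, adjusted p = 0.504) were the highest of the members, and with library totals alone both were higher in p-UPF1 IP (2.24, adjusted p = 0.00186, and 1.99, adjusted p = 0.00112). NDUFA5, NDUFA11, NDUFA12, NDUFA2, NDUFA13 and NDUFA9 had log2 fold changes between -1.30 and -0.23 (adjusted p = 0.185 to 0.808). NDUFA13, known as GRIM-19, was higher with library totals alone (1.146, adjusted p = 0.0431). NDUFA3 failed the filter, with 3, 8 and 7 counts in p-UPF1 IP and 7, 0 and 0 in pre-IP.

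The NDUFB subunits build the distal end of the membrane arm, and 7 of their 11 mRNAs fell (63.6%) while 0 rose. The shares were 28.9% and 2.54% over protein-coding genes with a coding length of up to 600 nt, and 10.9% and 8.81% over all genes. NDUFB1, a very small membrane protein, had the largest fall of the members. It had 4, 3 and 3 counts in p-UPF1 IP and 38, 22 and 16 in pre-IP, or 1.22, 1.09 and 1.68 CPM in p-UPF1 IP and 48.6, 78.8 and 27.6 CPM in pre-IP. It passed the filter on low counts through its pre-IP counts alone, since each p-UPF1 IP count was below 10. The log2 fold change was -5.19 (standard error 0.64, adjusted p = 4.08e-05), a level 36.4-fold lower in p-UPF1 IP on the fitted scale. NDUFB9, another LYR-motif protein, had 12.8, 11.3 and 17.9 CPM in p-UPF1 IP and 89.6, 132 and 100.2 CPM in pre-IP, a fall of 2.93 (standard error 0.36, adjusted p = 3.56e-05). NDUFB4 fell by 2.05 (standard error 0.37, adjusted p = 0.00114), with 14.05, 20.4 and 17.9 CPM in p-UPF1 IP and 66.5, 89.5 and 63.9 CPM in pre-IP. None of these groups overlapped.

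The other falls in this family were separated between the groups as well. NDUFB6 had 10.7, 11.6 and 17.3 CPM in p-UPF1 IP and 65.3, 53.7 and 43.2 CPM in pre-IP (log2 fold change -2.05, standard error 0.42, adjusted p = 0.00279). NDUFB8 had 25.05, 31.3 and 21.3 CPM in p-UPF1 IP and 66.5, 89.5 and 91.6 CPM in pre-IP (-1.65, standard error 0.34, adjusted p = 0.00287). NDUFB3 had 2.14, 4.73 and 8.39 CPM in p-UPF1 IP and 53.7, 17.9 and 20.7 CPM in pre-IP (-2.70, standard error 0.67, adjusted p = 0.0097). All 3 were below their pre-IP libraries in every p-UPF1 IP library, and pre-IP replicate 1 was the highest for NDUFB3. NDUFB10, which carries cysteine motifs, fell by 1.44 (adjusted p = 0.0114), with 22.9 ± 6.28 CPM in p-UPF1 IP and 62.1 ± 7.17 CPM in pre-IP (SD, n = 3 each). NDUFB2, NDUFB11 and NDUFB5 had log2 fold changes of -1.149, -0.99 and -0.28 (adjusted p = 0.115, 0.199 and 0.810). NDUFB7, a cysteine-motif protein like NDUFB10, had 11.0, 6.92 and 6.15 CPM in p-UPF1 IP and 0, 25.1 and 3.46 CPM in pre-IP, with a log2 fold change of 0.22 (standard error 0.99, adjusted p = 0.900). The NDUFC mRNAs, of the proximal membrane arm, were not past the threshold. NDUFC1 had 7.02, 8.74 and 8.39 CPM in p-UPF1 IP and 32.0, 21.5 and 10.4 CPM in pre-IP, without overlap (-1.42, adjusted p = 0.120), and NDUFC2 stood at -0.64 (adjusted p = 0.418).

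**Figure D2:**
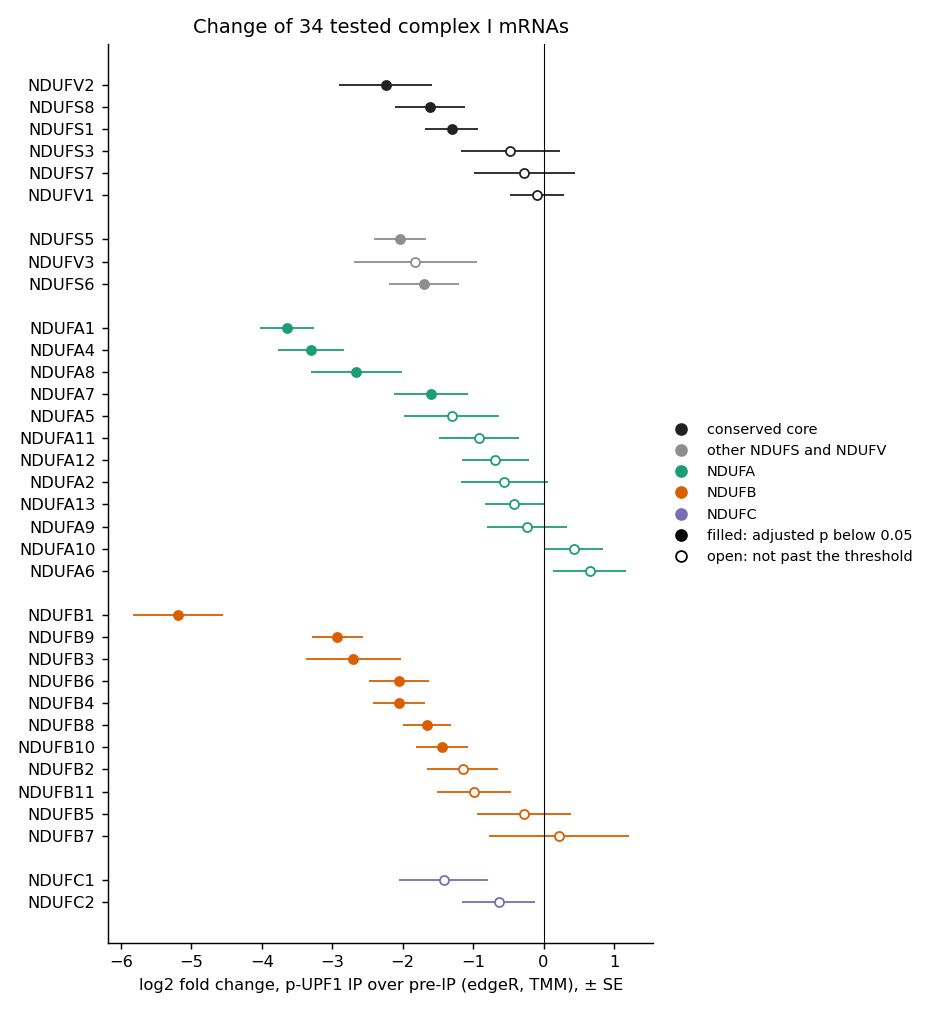
Log2 fold change of each of 34 tested complex I mRNAs (p-UPF1 IP over pre-IP, edgeR with TMM), with its standard error, by class; filled points have an adjusted p below 0.05. The range runs from -5.19 for NDUFB1 to 0.66 for NDUFA6, and every class with 3 or more members holds both filled and open points.

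Small accessory and core mRNAs were set against each other in 3 ways. By the letters of the symbols, 11 of 25 tested NDUFA, NDUFB and NDUFC mRNAs fell (44.0%) and 5 of 10 NDUFS and NDUFV mRNAs (50.0%). The median log2 fold changes of these classes were -1.30 and -1.46. By conservation, 13 of 28 mRNAs outside the core fell (46.4%, median -1.43) and 3 of 7 core mRNAs (42.9%). The shares of called members were thus close in both divisions, while the 6 largest falls (NDUFB1, NDUFA1, NDUFA4, NDUFB9, NDUFB3 and NDUFA8) were all in NDUFA and NDUFB genes. These families supply 12 and 11 of the 35 tested members. Of the 6 largest falls, NDUFB1, NDUFA4, NDUFB3 and NDUFA8 needed their higher pre-IP levels to pass the filter on low counts, as did NDUFV2. The ranking of falls is therefore a description and no support for a difference between classes. With the length trend removed, NDUFV3, not past the threshold, was at -2.13, below NDUFB9 (-1.92) and NDUFA8 (-1.78). By position in the enzyme, 7 of 11 tested mRNAs of the distal membrane arm fell (median -1.65), 3 of 8 of the proximal membrane arm (-1.17), 4 of 9 of the NADH module (-1.30) and 1 of 6 of the ubiquinone module (-0.68). Over all genes tested 10.9% were called lower, and 28.9% of protein-coding genes with a coding length of up to 600 nt. These modules had median transcript lengths of 684, 805, 930 and 1371 nt. With the length trend removed their medians were -0.53, -0.56, -0.33 and -0.49, so the order of the modules was not kept. No test between these classes was made, since the members were chosen with earlier results known.

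Ratios of counts within a library do not depend on the scaling between libraries, but no length trend was removed from them. The summed counts of NDUFA, NDUFB and NDUFC genes were 1.66, 2.16 and 1.74 times those of NDUFS and NDUFV genes in p-UPF1 IP replicates 3, 6 and 9, and 2.86, 2.53 and 1.89 times in pre-IP replicates 1, 4 and 7. These ranges overlapped, with means of 1.85 (SD 0.273) in p-UPF1 IP and 2.43 (SD 0.495) in pre-IP. For members outside the core over core members the ratios were 2.39, 3.36 and 2.37 in p-UPF1 IP and 4.97, 4.71 and 2.93 in pre-IP, again overlapping. The summed NDUFB counts, a contrast that was not planned but chosen with the values known, were also set against the core. They were 0.780, 1.22 and 0.816 times those of the core in p-UPF1 IP and 2.27, 1.75 and 1.31 times in pre-IP, without overlap. Pairs of single members, also chosen for their values, give the extent of the differences within the complex. NDUFA1 had 0.313, 0.389 and 0.188 times the counts of NDUFV1 in p-UPF1 IP and 3.85, 3.25 and 2.91 times in pre-IP. The members at the ends of the range gave 0.0426, 0.0341 and 0.0508 counts of NDUFB1 per count of NDUFA6 in p-UPF1 IP and 3.45, 1.83 and 2.67 in pre-IP.

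**Figure D3:**
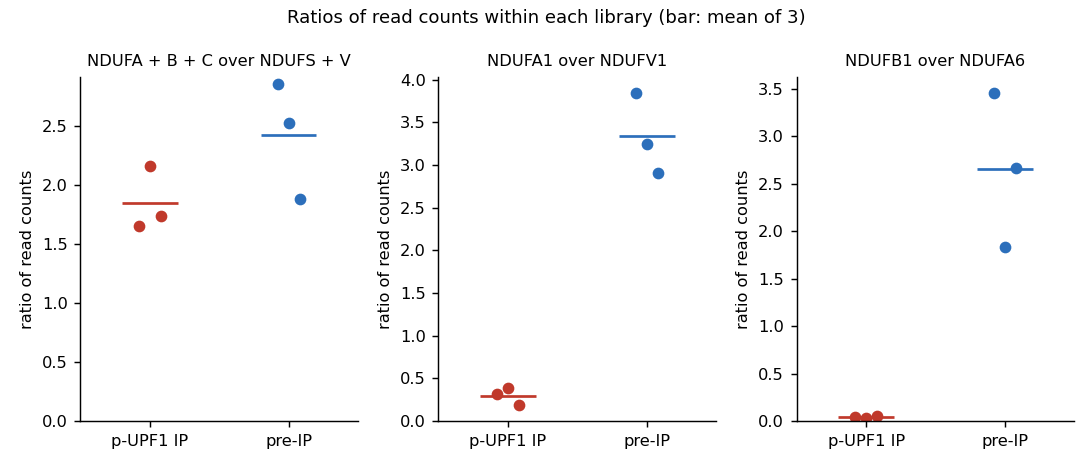
Ratios of read counts within each of the 3 p-UPF1 IP and 3 pre-IP libraries, with bars at the means. The class ratio overlaps between the groups (1.66 to 2.16 in p-UPF1 IP, 1.89 to 2.86 in pre-IP), whereas NDUFA1 over NDUFV1 (at most 0.389 in p-UPF1 IP, at least 2.91 in pre-IP) and NDUFB1 over NDUFA6 do not. These pairs of genes were chosen for their values, so their separation is no test.

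Transcript length moved with the change over the whole table. Across the 7470 tested genes with an annotated length, the log2 fold change correlated with the log2 median length of the coding transcripts at r = 0.38 (Spearman's rho 0.38), and the fitted trend was -1.52 at 500 nt, -0.72 at 1000 nt and 0.25 at 3000 nt. The tested members had a median transcript length of 785 nt, against 2876 nt for all protein-coding genes tested. Within the complex it was r = 0.24 and rho 0.23 over 35 members, and by coding length r = 0.38 and rho 0.29 beside r = 0.43 and rho 0.44 over all these genes. Without NDUFA4 and NDUFA9, over 33 members, it was r = 0.28 and rho 0.25 by transcript length and r = 0.33 and rho 0.20 by coding length. The members share libraries and are not independent. All lengths are of annotated transcripts, and the forms present in these cells were not examined. For NDUFA4, 1685 of the annotated 2130 nt lie after the coding sequence. NDUFB1 at 454 nt, NDUFA1 at 766 nt and NDUFB9 at 750 nt lay well below the trend at their length (-1.64, -1.03 and -1.06), as did NDUFA4 at 2130 nt (0.04) and NDUFS1 at 2394 nt (0.13). NDUFA6 at 1183 nt and NDUFA10 at 1489 nt lay above it (-0.53 and -0.28), and so did NDUFB7 at 531 nt (-1.46). With the trend removed from the fit, 5 members fell and 0 rose, beside 6.04% and 3.83% of all genes. The 5 were NDUFA4 (log2 fold change -3.39, adjusted p = 0.000535), NDUFA1 (-2.65, adjusted p = 0.000607), NDUFB1 (-3.62, adjusted p = 0.00237), NDUFB9 (-1.92, adjusted p = 0.00283) and NDUFS1 (-1.48, adjusted p = 0.0186). The median of the 35 was then -0.53, against -0.04 for all genes in that fit. Of the 1140 tested protein-coding genes with a coding length of up to 600 nt, 141 were lower and 51 higher in it. Their median was -0.31.

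**Figure D4:**
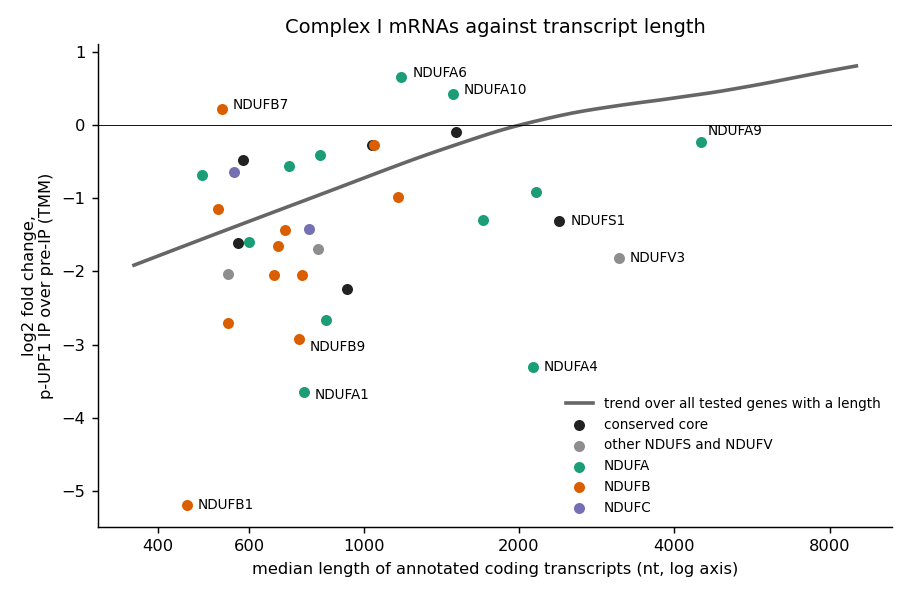
Log2 fold change (p-UPF1 IP over pre-IP, TMM) of 34 tested complex I mRNAs against the median length of their annotated coding transcripts (log axis), with the trend over all tested genes with a length. NDUFB1, NDUFA1, NDUFB9, NDUFA4 and NDUFS1 lie below the line, and NDUFA6, NDUFA10 and NDUFB7 above it.

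The calls depended on the scale and on single libraries. NDUFB1, NDUFA1, NDUFA4 and NDUFB9 were the only members called lower under all of TMM, the length-corrected fit and library totals alone, where they had log2 fold changes of -3.63, -2.08, -1.77 and -1.33 (adjusted p = 0.000637, 0.000415, 0.00814 and 0.0149). Of these, NDUFB1, with few p-UPF1 IP counts, was not tested at a minimum count of 30. The other 12 calls were lost with library totals alone. In 2 of them the sign turned (NDUFS1, and NDUFB10 at 0.069), and NDUFS8 and NDUFA7 were at -0.044 and -0.0069. Of the 16 calls, 9 held without any of the 6 libraries in turn. NDUFA7 was lost without p-UPF1 IP replicate 3, 6 or 9 or pre-IP replicate 4 or 7 (highest adjusted p = 0.232). NDUFS8 was lost without p-UPF1 IP replicate 3, 6 or 9 or pre-IP replicate 4 (0.135), and NDUFS1 without p-UPF1 IP replicate 3, 6 or 9 or pre-IP replicate 7 (0.123). NDUFV2 was lost without p-UPF1 IP replicate 3 or 6 or pre-IP replicate 7 (0.115), and NDUFS6 without p-UPF1 IP replicate 3 or 9 or pre-IP replicate 7 (0.125). NDUFB10 was lost without p-UPF1 IP replicate 6 or 9 (0.0766), and NDUFB3 without p-UPF1 IP replicate 3 or pre-IP replicate 1 (0.0982). Calls were also gained: without pre-IP replicate 7, NDUFV3 (adjusted p = 0.0138), NDUFB2 (0.0212), NDUFA5 (0.0406) and NDUFC1 (0.0494) were called lower, and NDUFV3 without a filter on low counts as well (0.0407). All 3 core calls are among the 7 that were lost, so none of the core mRNAs kept its call without each library.

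**Figure D5:**
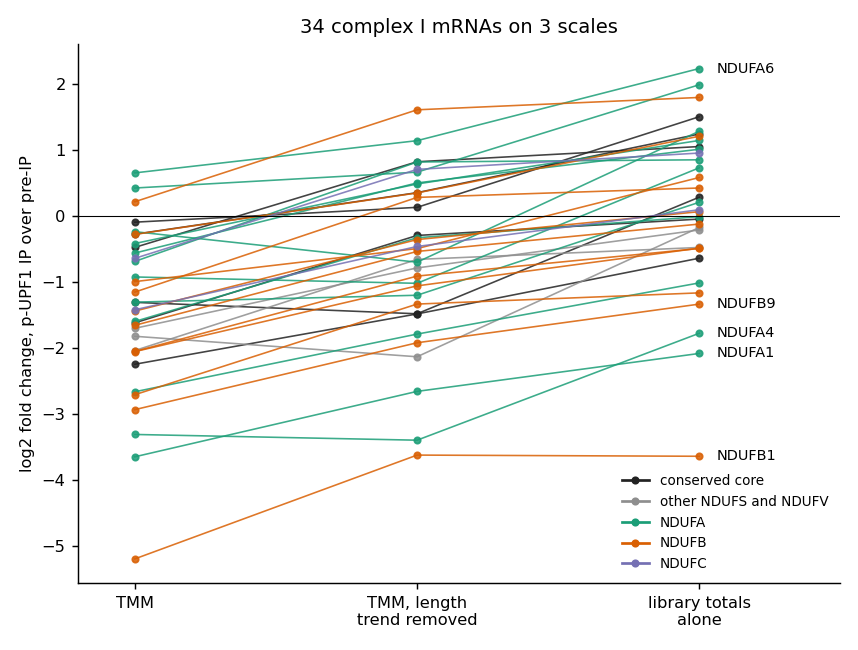
Log2 fold changes (p-UPF1 IP over pre-IP) of 34 tested complex I mRNAs with TMM, with TMM and the length trend removed, and with library totals alone; a line joins the values of each mRNA. NDUFB1, NDUFA1, NDUFA4 and NDUFB9 stay below 0 and past the threshold on each scale, while most other lines cross or approach 0 with library totals alone.

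Some counts may be shared with other genes. Pseudogenes named after the gene are annotated for 17 of the 37 members, among them 12 each for NDUFB4 and NDUFA5 and 6 for NDUFS5, and how reads with several matches were counted is not given in the sources used here. Annotated small RNA genes lie inside 5 members (NDUFS3, NDUFS8, NDUFA10, NDUFB3 and NDUFB5). Other counted genes overlap several members in position. Among them are the called NDUFV2 (NDUFV2-AS1), NDUFS6 (MRPL36) and NDUFS1 (GCSHP3), and NDUFC1 (NAA15) and NDUFB11 (RBM10), which were not called. The part of all these genes in the values was not tested.

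The symbol rule misses NDUFAB1, the mitochondrial acyl carrier protein, which is itself a complex I subunit and is bound by the LYR-motif subunits. It had 17.1, 17.1 and 11.7 CPM in p-UPF1 IP and 66.5, 136 and 50.1 CPM in pre-IP (log2 fold change -2.38, standard error 0.42, adjusted p = 0.000929), without overlap. Of 11 tested assembly factors, which help build the enzyme without staying in it, 2 fell and 0 rose (median -0.86, 4 lower and 0 higher at an unadjusted p below 0.05), or 18.2%, which lies between the 10.9% of all genes and the 28.9% of genes with short coding sequences. The 2 that fell were NDUFAF4 (-2.01, adjusted p = 0.00548) and TIMMDC1 (-1.30, adjusted p = 0.0298). Of 36 tested subunits of complexes II to V, 21 fell and 0 rose, with a median of -1.52 beside the -1.30 of complex I, and with 24 lower and 0 higher at an unadjusted p below 0.05. With library totals alone these 36 gave 5 lower and 8 higher, and the assembly factors 0 lower and 1 higher, beside 1.93% lower and 60.4% higher over all genes. Of 1140 tested genes with short coding sequences, 42 were lower and 374 higher on that scale. With TMM at an unadjusted p below 0.05, 475 of these short genes were lower and 61 higher. Over all 8070 genes tested, 1349 were lower and 1396 higher at that threshold.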

How the data were processed

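The authors deposited unnormalized whole-number counts for each gene symbol. The submitters' processing notes name cutadapt (1.15) and STAR (2.5.2b), then featureCounts from Subread (1.5.0p3), with hg19 as the genome. Which gene annotation and strand setting were used, and how multiply matching reads were treated, is not given in the sources used here. Per the labels' protocols, libraries were made by ligating adapters to both ends of RNA depleted of ribosomal RNA, with no molecular identifiers described, so counts need not be independent molecules. Genes were filtered with filterByExpr (at least 10 counts as its setting), scaled by TMM and tested together by the edgeR quasi-likelihood approach (edgeR 4.0.16, R 4.3.3) with Benjamini-Hochberg adjustment at 0.05. Standard errors are the size of the log2 fold change over the root of its F statistic. The steps were tested on simulated data. Alternatives were other scalings and filters, DESeq2 1.42.0, limma-voom (limma 3.58.1), genes left out, a length correction and each library left out. The length correction used a loess trend (span 0.5) on the median length of the basic coding transcripts in GENCODE release 29 (GRCh38) and not the hg19 of the table, matched by symbol for 7470 of 8070 genes tested and for all 37 members. Values in every library were planned for the 10 members with the lowest p, the core, the atypical members, the 3 highest and those failing the filter. Other members shown, the ratio of NDUFB to core counts and the ratios of single genes were added after seeing values. Members, lists and this rule were chosen with earlier results of these data known. Values of 1 member are not reported here and not plotted; it is kept in the counts and medians.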

Additional observations from a re-analysis of the deposited data

How the results depend on the processing

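The labels state no pairing of libraries, and the groups share no replicate numbers, so no paired analysis was made and any pairing is ignored. With library totals alone the members' median log2 fold change (p-UPF1 IP over pre-IP) was 0.21, 4 members were lower (4 NDUFA, NDUFB or NDUFC, 0 NDUFS or NDUFV) and 4 higher, and of all genes 156 were lower and 4874 higher. It turned positive for NDUFS3 (1.054), NDUFV1 (1.51), NDUFC2 (0.96), NDUFA9 (1.29), NDUFA12 (0.85), NDUFB10 (0.069), NDUFS7 (1.24), NDUFA11 (0.73), NDUFA13 (1.146), NDUFS1 (0.29), NDUFB5 (1.21), NDUFC1 (0.10), NDUFA2 (1.01), NDUFA5 (0.21), NDUFB2 (0.43) and NDUFB11 (0.59). With the length trend removed 5 members were lower (4 and 1 by letters), with a median of -0.53 and a core minus other difference of 0.30, and of all genes 451 were lower and 286 higher. There the log2 fold change was positive for NDUFS3 (0.82), NDUFV1 (0.13), NDUFC2 (0.71), NDUFA12 (0.82), NDUFS7 (0.36), NDUFA13 (0.49), NDUFB5 (0.35), NDUFA2 (0.50) and NDUFB2 (0.28).

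A minimum count of 30 left 9 members lower (6 and 3 by letters), since it tested fewer of them. The difference of medians between NDUFA, NDUFB and NDUFC and NDUFS and NDUFV mRNAs, 0.16 with TMM, was -0.34 there and -0.043 with limma-voom. The core minus other difference, 0.55 with TMM, was 0.30 with limma-voom, 0.33 without the 10 most counted genes and 0.32 without small structured RNA genes. Without a filter 1101 of all genes were higher. Signs of near-zero members also turned, for NDUFB7 with DESeq2 (-0.020), NDUFV1 (0.031), NDUFA9 (0.036) and NDUFB5 (0.0069) with limma-voom, and NDUFV1 without a filter (0.086). The cause was not tested in any of these.

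Leaving out each library in turn gave 10 to 16 members lower (9 to 13 NDUFA, NDUFB or NDUFC and 1 to 6 NDUFS or NDUFV), 0 higher, and medians of -1.52 to -0.95. The letter difference was -0.31 to 0.43 and the core difference 0.20 to 0.67. Of all genes 518 to 833 were lower and 273 to 795 higher. The sign of 5 members turned in these fits. NDUFB7 ranged from -0.58 to 2.39, negative without p-UPF1 IP replicate 3 (-0.19) or pre-IP replicate 1 (-0.58) or 7 (-0.13). NDUFV1 ranged from -0.29 to 0.32, positive without p-UPF1 IP replicate 6 (0.11) or pre-IP replicate 4 (0.32). NDUFA9 ranged from -0.74 to 0.85 and NDUFB5 from -0.77 to 0.79, both positive without pre-IP replicate 1, and NDUFS3 from -0.87 to 0.13, positive without pre-IP replicate 7. Depth limits NDUFB1, with 10 counts in p-UPF1 IP, and NDUFB7, with 9 in pre-IP.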
